A study of Mus musculus with 6 samples.

Results

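Glutathione transferases, aldo-keto reductases and aldehyde dehydrogenases are the enzymes with which a cell conjugates electrophiles to glutathione, reduces carbonyl groups and oxidises aldehydes. Here their RNA was compared between KPSC and KPC tumour cells. Members were all genes whose symbol carries a glutathione transferase class (Gsta, Gstk, Gstm, Gsto, Gstp, Gstt or Gstz), an Akr number or an Aldh number. They numbered 60 of the 18180 genes with values, namely 22 glutathione transferases, 17 aldo-keto reductases and 21 aldehyde dehydrogenases. The rule reads the symbols alone.

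The 6 libraries came from pancreatic ductal adenocarcinoma (PDAC) grown orthotopically in C57BL/6 mice and collected after about 10 to 14 days, from which tumour cells were sorted, 3 libraries titled KPC and 3 titled KPSC. The labels do not spell out the alleles behind KPC and KPSC, the sort markers, the number of cell lines or clones, or whether each library is a separate animal. A p-value here therefore covers only the spread between these libraries, which may be technical. The genotype field runs against the titles, with Setd2 knockout beside each KPC title and wild type beside each KPSC title. The titles name the groups throughout, and the genotype field sets no direction. Setd2, a histone H3 lysine 36 methyltransferase, had 1338, 1099 and 1046 normalised reads in KPC replicates 1 to 3 and 859, 908 and 1042 in KPSC replicates 1 to 3 (limma adjusted p = 0.148). All KPSC libraries were below all KPC libraries, but the difference did not pass the test, and whole-gene reads do not check a deletion of part of the gene.

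Glutathione transferases join glutathione to reactive compounds, and some classes serve as isomerases or thiol reductases instead. Aldo-keto reductases use NADPH to turn aldehydes and ketones, steroids among them, into alcohols, while aldehyde dehydrogenases use NAD or NADP to turn aldehydes into acids, including retinaldehyde into retinoic acid and intermediates of proline, lysine and carnitine metabolism. Many genes of all families are known targets of NRF2, a transcription factor that binds antioxidant response elements, and aldehyde dehydrogenase activity is widely used as a marker of stem-like cells in pancreatic tumours.

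The table held 14662710 to 17746969 reads per library, and a normalised read is a read count divided by the library's size factor, which ran from 0.828 to 1.189. KPSC replicate 3 stood apart from the other KPSC libraries: its correlation with them over log2 values was 0.947 and 0.954, against 0.984 between KPSC replicates 1 and 2. Of 13 duct markers, which the tumour cells should express, 4 rose and 3 fell, and their summed share was 0.875% to 1.15% of reads in all libraries. For scale, limma called 7.61% of all genes tested higher and 6.76% lower. Acinar markers made up 2.44%, 0.926% and 7.23% of the reads of KPC replicates 1 to 3 and 17.7%, 9.19% and 0.379% of KPSC replicates 1 to 3, with 0 of 21 called in either direction by limma, edgeR or DESeq2 and 0 at an unadjusted p under 0.05. Without KPSC replicate 3, limma called 15 of 21 acinar markers higher. In the 3 libraries low in acinar reads (5% or less: KPC replicates 1 and 2 and KPSC replicate 3), a set chosen by these very reads, it called 16 of 20 lower. In limma, 3 of 8 pan-leukocyte and 3 of 16 macrophage markers fell, with summed shares of 0.138% to 0.158% and 0.404% to 0.455% in KPC against 0.0745% to 0.125% and 0.301% to 0.354% in KPSC. Fibroblast markers, of which 1 of 12 fell, took 0.94% to 1.14% of reads in KPC and 0.581% to 1.61% in KPSC. Mesothelial markers, of which 2 of 7 rose and 1 fell, took 0.1% to 0.149% and 0.172% to 0.211%. Yet 5 of these 7 had a negative log2 fold change, with a median of -0.21, and Krt19 is also in the duct list. Islet (10), endothelial (10) and hepatocyte (8) markers gave 0 limma calls, and hepatocyte markers, which matter for enzymes best known from liver, stayed at or below 0.00987% of reads. At an unadjusted p under 0.05 these lists gave 0, 0 and 2 genes, edgeR called 0 in each, and DESeq2 called 0, 0 and 2. In the 3 low-acinar libraries limma called 9 of 10 islet, 0 of 10 endothelial and 1 of 8 hepatocyte markers lower. No marker with values was at 0 reads in every library. In bulk RNA, fewer cells of a type and less RNA per cell cannot be told apart.

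Of the 60 members, 54 reached a normalised value of 1 in 3 or more libraries and were tested. With limma on log2(value + 1) and Benjamini-Hochberg adjustment over all 16737 genes tested at a threshold of 0.05, 9 members rose and 5 fell in KPSC, and 40 were not called. Over all genes tested 7.61% rose and 6.76% fell, 14.4% in either direction, against 25.9% of the tested members. Of the calls over all genes 53% were higher in KPSC, a share that fell to 29.7% when reads were scaled to library totals. Among the glutathione transferases 5 of 21 rose (Gsto2, Gsta3, Gstt2, Gsto1 and Gstz1) and 1 fell (Gstm5), with a median log2 fold change of 0.17. Among the aldehyde dehydrogenases 4 of 18 rose (Aldh3a1, Aldh1a3, Aldh9a1 and Aldh18a1) and 1 fell (Aldh7a1), with a median of 0.24. Among the aldo-keto reductases 0 of 15 rose and 3 fell (Akr1c14, Akr1c19 and Akr1c13), with a median of 0.10. In that family 5 genes had an unadjusted p under 0.05, edgeR called 0 higher and DESeq2 called 1 higher. The median over all genes tested was 0.01.

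The groups did not overlap for 21 tested members, 14 with KPSC above and 7 with KPSC below, while over all genes tested 17.6% lay above and 17.2% below. The 6 members that were not tested, Akr1c20, Akr1d1, Aldh3b2, Aldh3b3, Aldh8a1 and Gstt4, reached at most 4 reads in any library.

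**Figure D1:**
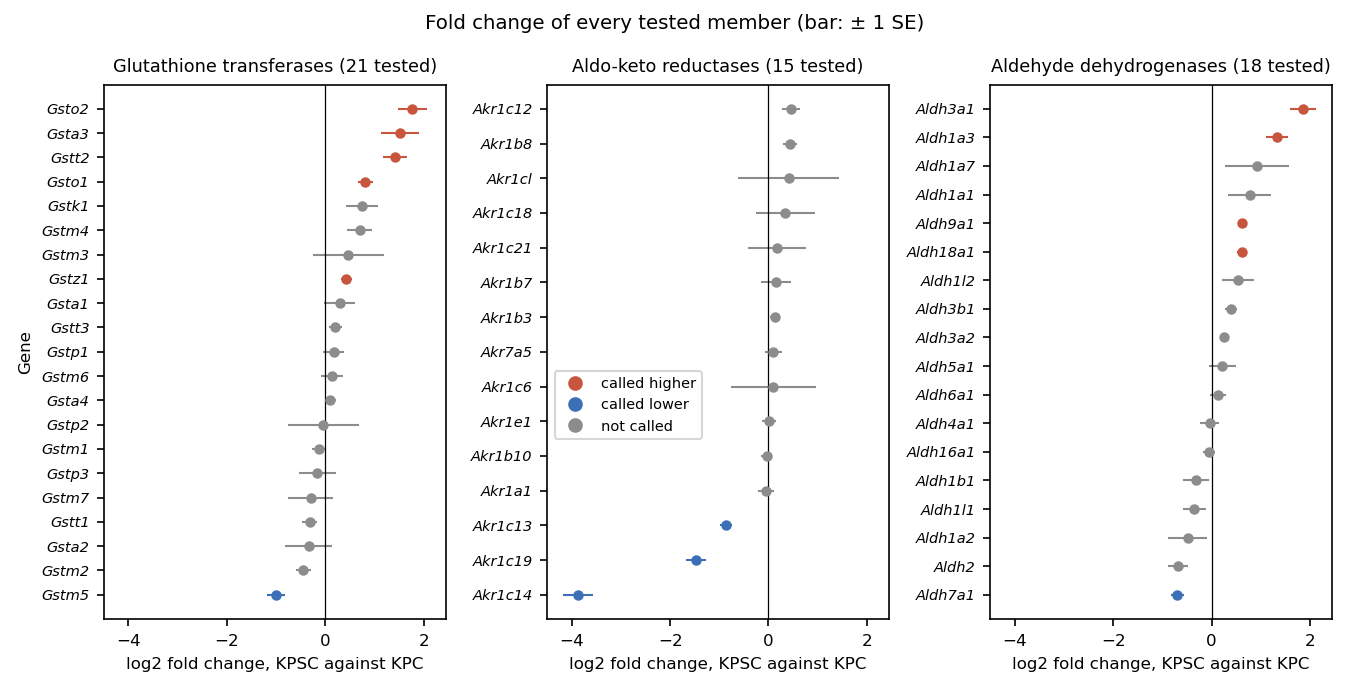
Log2 fold change of KPSC against KPC (x axis) for each tested member (y axis), by family, with bars of 1 SE from limma and colours for the calls. Called members run from -3.87 for Akr1c14 to 1.86 for Aldh3a1, and in the aldo-keto reductase panel every called gene lies to the left of 0.

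Family sums are given as CPM, reads scaled to an equal library total. Summed glutathione transferase reads were 1005, 1134 and 1165 CPM in KPC replicates 1 to 3 and 1101, 1212 and 1165 in KPSC replicates 1 to 3. Summed aldo-keto reductase reads were 884, 1058 and 931 CPM in KPC and 771, 818 and 883 in KPSC. Summed aldehyde dehydrogenase reads were 1765, 1796 and 1559 CPM in KPC and 1405, 1545 and 1316 in KPSC. The groups overlapped for the first family, and every KPSC library was below every KPC library for the other 2 on this scale. As sums of normalised reads the groups overlapped in all 3 families, with 12667, 15797 and 14727 in KPC and 15605, 13913 and 12966 in KPSC for the aldo-keto reductases. For the aldehyde dehydrogenases these sums were 25295, 26813 and 24642 in KPC and 28441, 26268 and 19314 in KPSC. CPM values share a total that acinar transcripts also fill, so the acinar shares above belong beside these sums.

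Per kilobase of the deposited gene length, the leading enzyme changed place in the glutathione transferases. In KPC the highest level was that of Gstp1, at 2342 normalised reads per kb or 20.5% of the family's sum, followed by Gsta4 at 2291 and Gsto1 at 1994. In KPSC it was Gsto1, at 3481 normalised reads per kb or 27.1%, followed by Gstp1 at 2662 and Gsta4 at 2461. The neighbouring levels of Gstp1 and Gsta4 overlapped between libraries in both groups. The deposited length of Gstp1, 757 bases, is below the 1548 bases of its exons in GENCODE M21, and a longer length would lower its level. At 1548 bases Gstp1 would rank below Gsta4 and Gsto1 in both groups, so its first place in KPC rests on the deposited length.

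In the other families the leader stayed the same. Akr1a1, the general aldehyde reductase, led the aldo-keto reductases with 3253 normalised reads per kb in KPC (59.3% of the family's sum) and 3137 in KPSC (56.6%). Aldh2, the mitochondrial enzyme that clears acetaldehyde, led the aldehyde dehydrogenases with 2658 normalised reads per kb in KPC (46.5%) and 1692 in KPSC (28.4%). Behind it the order differed: Aldh7a1 at 497 normalised reads per kb was next in KPC, while Aldh1a3 at 940 and Aldh3a1 at 612 were next in KPSC.

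**Figure D2:**
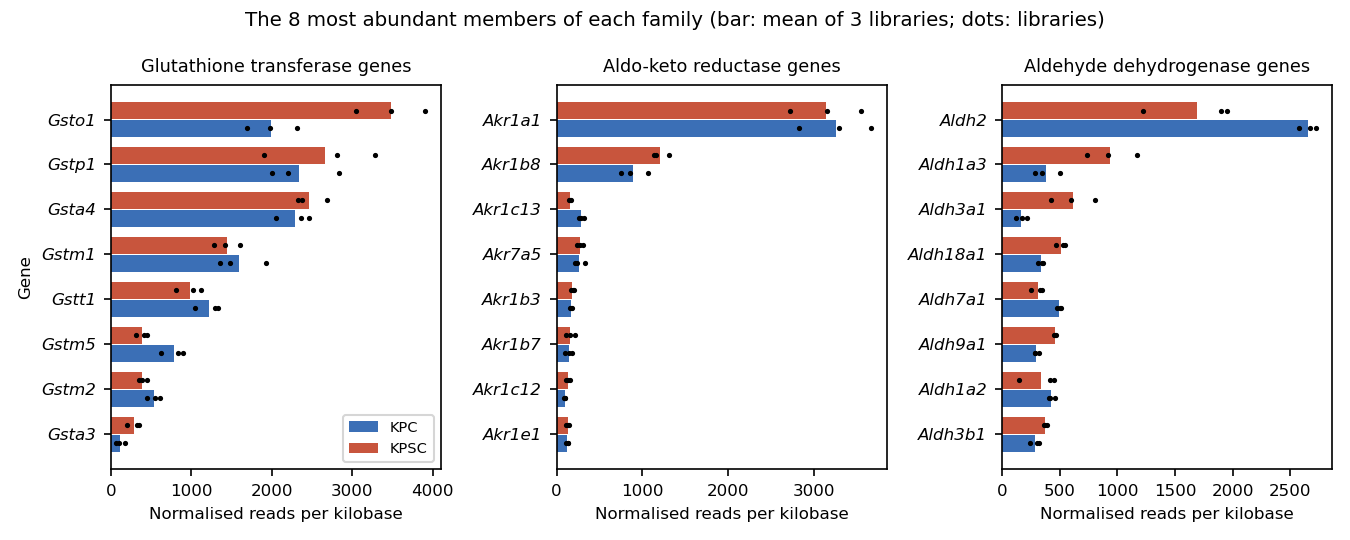
Normalised reads per kilobase (x axis, from 0) of the 8 most abundant members of each family (y axis); bars are means of 3 libraries and dots are libraries. Gsto1 is the longest KPSC bar of the glutathione transferases at 3481 and Aldh2 the longest bar of the aldehyde dehydrogenases in both groups at 2658 and 1692.

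Omega class transferases act mainly as thiol reductases and reduce dehydroascorbate, and both measured members rose. Gsto1 (ENSMUSG00000025068, chr19:47854970-47864790 of mm10, plus strand) had 3336, 4542 and 3895 normalised reads in KPC replicates 1 to 3 and 7689, 6861 and 6000 in KPSC replicates 1 to 3. All KPSC libraries were above all KPC libraries. Its mean went from 3924 ± 604 to 6850 ± 845 (SD, n = 3 each), a log2 fold change of 0.81 (SE 0.15, limma adjusted p = 0.0119). Gsto2, the next gene on the same strand (ENSMUSG00000025069, chr19:47865545-47886324), had 10.9, 10.1 and 10.8 normalised reads in KPC and 43.5, 39.1 and 33.7 in KPSC. Its low counts were tight within groups and did not overlap, and the log2 fold change was 1.77 (SE 0.30, limma adjusted p = 0.00893). Gsto2 held 0.00222 to 0.00327 of the Gsto1 value in KPC libraries and 0.00561 to 0.0057 in KPSC libraries. The median log2 fold change of the 61 other expressed genes within 5 Mb of Gsto1 was 0.50. With reads scaled to library totals Gsto1 was not called (0.61, limma adjusted p = 0.0524), and in the 3 low-acinar libraries neither Gsto1 (0.62, adjusted p = 0.141) nor Gsto2 (1.59, adjusted p = 0.117) was.

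Theta class transferases act on small halogenated and sulphate-bearing compounds. Gstt2 (ENSMUSG00000033318, chr10:75831114-75837424, minus strand) had 160, 104 and 207 normalised reads in KPC replicates 1 to 3 and 429, 439 and 359 in KPSC replicates 1 to 3. The lowest KPSC library was above the highest KPC library. Its mean went from 157 ± 51.4 to 409 ± 43.4 (SD, n = 3 each), a log2 fold change of 1.42 (SE 0.24, limma adjusted p = 0.00891), and the call held in all 15 alternatives run. Gstt1, in the same gene cluster, had a mean of 1868 ± 237 in KPC and 1498 ± 236 in KPSC (log2 fold change -0.32, limma adjusted p = 0.192), with overlapping groups. Per library, and without correction for length, Gstt2 stood at 0.0527 to 0.102 of the Gstt1 value in KPC and at 0.252 to 0.29 in KPSC. Gstt3 had means of 371 and 429 normalised reads and was not called.

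Alpha class transferases conjugate lipid peroxidation products and, for Gsta3 in the mouse, aflatoxin epoxide. Gsta3 (ENSMUSG00000025934, chr1:21240589-21265661, plus strand) had 410, 252 and 758 normalised reads in KPC replicates 1 to 3 and 1484, 1423 and 885 in KPSC replicates 1 to 3. The groups did not overlap, but KPC replicate 3 and KPSC replicate 3 lay close to each other. Its mean went from 474 ± 259 to 1264 ± 330 (SD, n = 3 each), a log2 fold change of 1.52 (SE 0.38, limma adjusted p = 0.0349). The call was lost without KPC replicate 1 (1.49, limma adjusted p = 0.107), KPC replicate 2 (1.14, adjusted p = 0.0792), KPSC replicate 1 (1.39, adjusted p = 0.105) or KPSC replicate 2 (1.42, adjusted p = 0.109). Within each group its values, like those of Gstm4, Gstp1, Gstp3, Aldh1a7, Aldh1b1 and Aldh6a1, followed the order of the acinar share given above. How many of all genes follow this order was not counted, and an acinar part in the Gsta3 values was not tested. In the 3 low-acinar libraries the log2 fold change was 1.46 (limma adjusted p = 0.00469), where the single KPSC library was assumed to vary like the KPC pair. Over the 721 expressed genes of chromosome 1 the median was 0.39. Gsta4, the alpha enzyme with a preference for hydroxynonenal, was at 2901 ± 272 in KPC and 3116 ± 250 in KPSC (0.10, limma adjusted p = 0.596), and its groups overlapped. Gsta1, of whose 50-base windows 89.7% occur in other genes, and Gsta2 were low and not called.

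The zeta enzyme Gstz1 (ENSMUSG00000021033, chr12:87147165-87164723, plus strand), maleylacetoacetate isomerase of tyrosine breakdown, had 351, 408 and 407 normalised reads in KPC and 546, 544 and 482 in KPSC. The groups did not overlap, and the mean went from 389 ± 32.4 to 524 ± 36.4 (SD, n = 3 each), a log2 fold change of 0.43 (SE 0.11, limma adjusted p = 0.0416). This is the least stable of the calls: it was lost in 9 of 15 alternatives, among them leaving out KPC replicate 1, 2 or 3 or KPSC replicate 1 or 2 (limma adjusted p = 0.109, 0.09, 0.0859, 0.132 and 0.128) and scaling to library totals (0.24, adjusted p = 0.431). Gstk1, the mitochondrial kappa enzyme, had means of 35 and 57.6 normalised reads and was not called (0.74, limma adjusted p = 0.187).

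Mu class genes lie side by side on chromosome 3, 7 of them within 149 kb, and they did not move together. Gstm5 (ENSMUSG00000004032, chr3:107895821-107898686, plus strand), at one end, had 794, 1061 and 1143 normalised reads in KPC replicates 1 to 3 and 568, 525 and 403 in KPSC replicates 1 to 3. Every KPSC library was below every KPC library. The group mean went from 1000 ± 182 to 499 ± 85.3 (SD, n = 3 each), a log2 fold change of -1.0 (SE 0.18, limma adjusted p = 0.00988), and the call held in all 15 alternatives. Gstm4, at the other end, had 104, 77.4 and 132 normalised reads in KPC and 190, 181 and 134 in KPSC. Its groups did not overlap, with KPSC above, but it was not called (0.70, SE 0.25, limma adjusted p = 0.101) except without KPSC replicate 3 (0.86, adjusted p = 0.04). Gstm4 stood at 0.0729 to 0.131 of the Gstm5 value in KPC and at 0.332 to 0.345 in KPSC. Gstm2 had 753, 909 and 1028 normalised reads in KPC and 747, 644 and 576 in KPSC, without overlap by a narrow margin, and was not called (-0.45, SE 0.15, limma adjusted p = 0.0812). It was called with library-total scaling (-0.64, limma adjusted p = 0.0329). Gstm1, the most abundant mu gene per kilobase, had means of 2336 ± 444 and 2117 ± 241 and overlapping groups (-0.13, limma adjusted p = 0.629). Around Gstm5, 65 expressed neighbours within 5 Mb had a median of -0.23. Mu genes are close paralogs, and how reads that fit several of them were counted is not given in the sources used here.

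No pi class gene was called. Gstp1, the transferase most often named in human tumours, had 1662, 1513 and 2143 normalised reads in KPC replicates 1 to 3 and 2481, 2122 and 1443 in KPSC replicates 1 to 3. The groups overlapped, with KPSC replicate 3 the lowest of all libraries (log2 fold change 0.17, limma adjusted p = 0.671). Gstp1 shares 51% of its windows with other genes, so its reads and those of Gstp2 are uncertain.

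**Figure D3:**
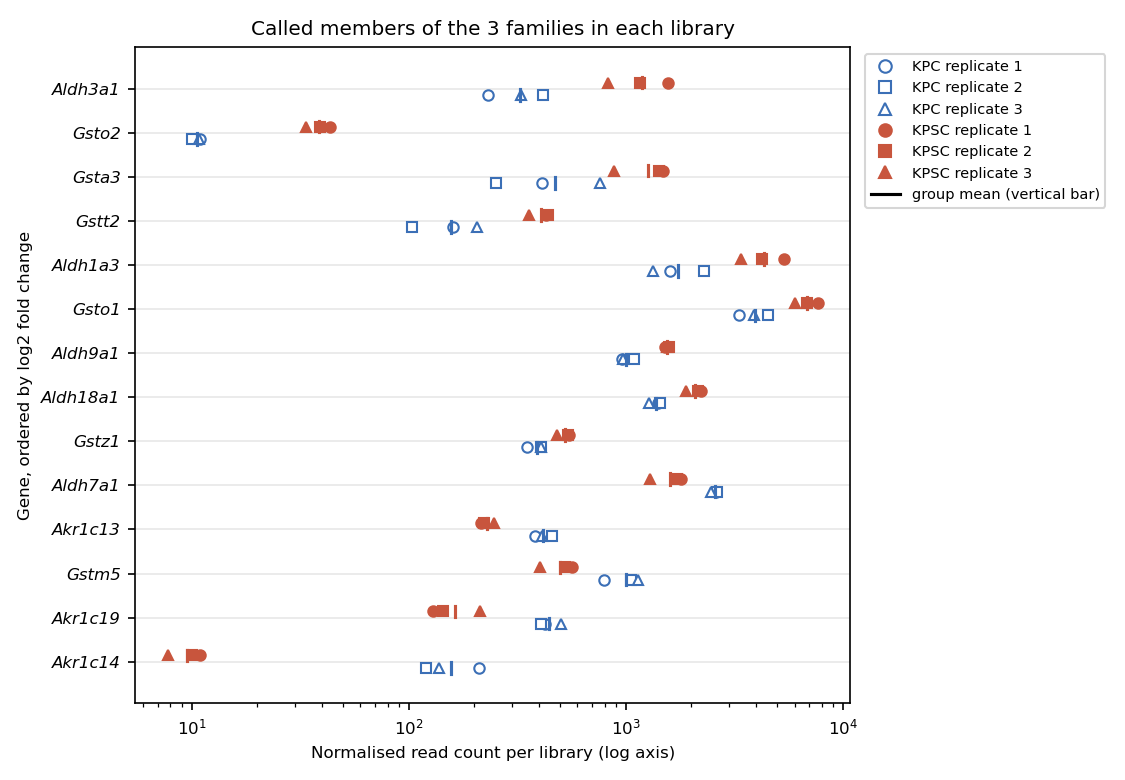
Normalised read count in each library (x axis, log scale) for the 14 called members (y axis, ordered by log2 fold change); open blue symbols are KPC libraries, filled red symbols KPSC libraries, shapes mark the replicate and vertical bars the group means. The colours separate in all rows, and the widest gap is that of Akr1c14, at 120 to 212 in KPC and 7.77 to 10.9 in KPSC.

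Promoter windows of the called glutathione transferases were read because the classical antioxidant response element was described at such genes. Windows ran from 250 bases before to 50 bases after the RefSeq start (GRCm38.p6) and were found for 50 of the 60 members and 10 of the 14 called ones. The element's core, TGACNNNGC on either strand, lay in 4 of these 10 called members: Gsta3 and Gstm5, shown here for the bases before the start, and Aldh9a1 and Akr1c19. Windows of the called Gsto1, Gsto2 and Gstz1 held no such core, and no window was found for Gstt2. Gsta3 rose and Gstm5 fell. Both are plus-strand sequences, chr1:21240335-21240584 for Gsta3 and chr3:107895604-107895853 for Gstm5, with the core in capitals.
Gsta3: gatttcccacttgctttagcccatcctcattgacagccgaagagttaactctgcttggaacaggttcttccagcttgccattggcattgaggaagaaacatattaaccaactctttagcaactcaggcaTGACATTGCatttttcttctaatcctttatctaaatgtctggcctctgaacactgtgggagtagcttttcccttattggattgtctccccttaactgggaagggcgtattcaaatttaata
Gstm5: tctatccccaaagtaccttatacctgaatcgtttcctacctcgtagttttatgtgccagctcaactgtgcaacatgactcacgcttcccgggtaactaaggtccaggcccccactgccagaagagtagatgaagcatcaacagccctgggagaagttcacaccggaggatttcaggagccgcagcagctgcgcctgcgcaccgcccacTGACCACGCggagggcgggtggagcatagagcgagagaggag
The match begins 121 bases before the start of Gsta3 (TGACATTGC) and 42 bases before that of Gstm5 (TGACCACGC). Over all 50 members with a window, 7 held the core, or 14%, which is also the share of all 27025 genes with a window, at 14%. A match of these letters is a description and not a bound site.

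Aldo-keto reductases of the 1C group oxidise and reduce steroids and other hydroxylated ring compounds. In the mouse, 8 of the 9 Akr1c members and Akr1e1 lie within 560 kb of chromosome 13, and the called aldo-keto reductases were all in this cluster. Akr1c14 (ENSMUSG00000033715, chr13:4049011-4090688, plus strand), a 3-alpha-hydroxysteroid dehydrogenase, had 212, 120 and 138 normalised reads in KPC replicates 1 to 3 and 10.9, 10.1 and 7.77 in KPSC replicates 1 to 3. The lowest KPC library was more than 10 times the highest KPSC library. The group mean went from 157 ± 48.6 to 9.57 ± 1.6 (SD, n = 3 each), a log2 fold change of -3.87 (SE 0.31, limma adjusted p = 0.000413), which is the largest change of the 54 tested members.

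Akr1c19 (ENSMUSG00000071551, chr13:4228700-4252843, plus strand) had 426, 406 and 504 normalised reads in KPC replicates 1 to 3 and 130, 144 and 214 in KPSC replicates 1 to 3. Every KPSC library was below every KPC library, and the mean went from 445 ± 51.5 to 163 ± 44.9 (SD, n = 3 each), a log2 fold change of -1.47 (SE 0.20, limma adjusted p = 0.00379). Akr1c13 (ENSMUSG00000021213, chr13:4191150-4205596, plus strand) had 383, 456 and 410 normalised reads in KPC and 216, 223 and 248 in KPSC. Its groups were tight and apart, with means of 416 ± 36.9 and 229 ± 16.6 and a log2 fold change of -0.86 (SE 0.12, limma adjusted p = 0.00471). The calls of Akr1c14 and Akr1c19 held in all 15 alternatives, and that of Akr1c13 in all but the 3 low-acinar libraries (-0.75, limma adjusted p = 0.0536).

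Akr1c12, the member that shares most sequence with Akr1c13, had 125, 125 and 116 normalised reads in KPC and 204, 141 and 167 in KPSC. It lay in the opposite direction without overlap but was not called (0.46, SE 0.18, limma adjusted p = 0.142). Akr1c12 stood at 0.275 to 0.325 of the Akr1c13 value in KPC and at 0.63 to 0.944 in KPSC. The pair shares 28.6% of 50-base windows, so part of the reads of each may have been split between them. Akr1e1, an anhydrofructose reductase at the far end of the cluster, had means of 464 and 466 normalised reads (0.01, limma adjusted p = 0.973). Akr1c18, Akr1c21, Akr1c6 and Akr1cl never exceeded 10 reads, and no change was detectable at that depth. Around Akr1c14, 9 expressed genes within 5 Mb had a median of 0.05.

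**Figure D4:**
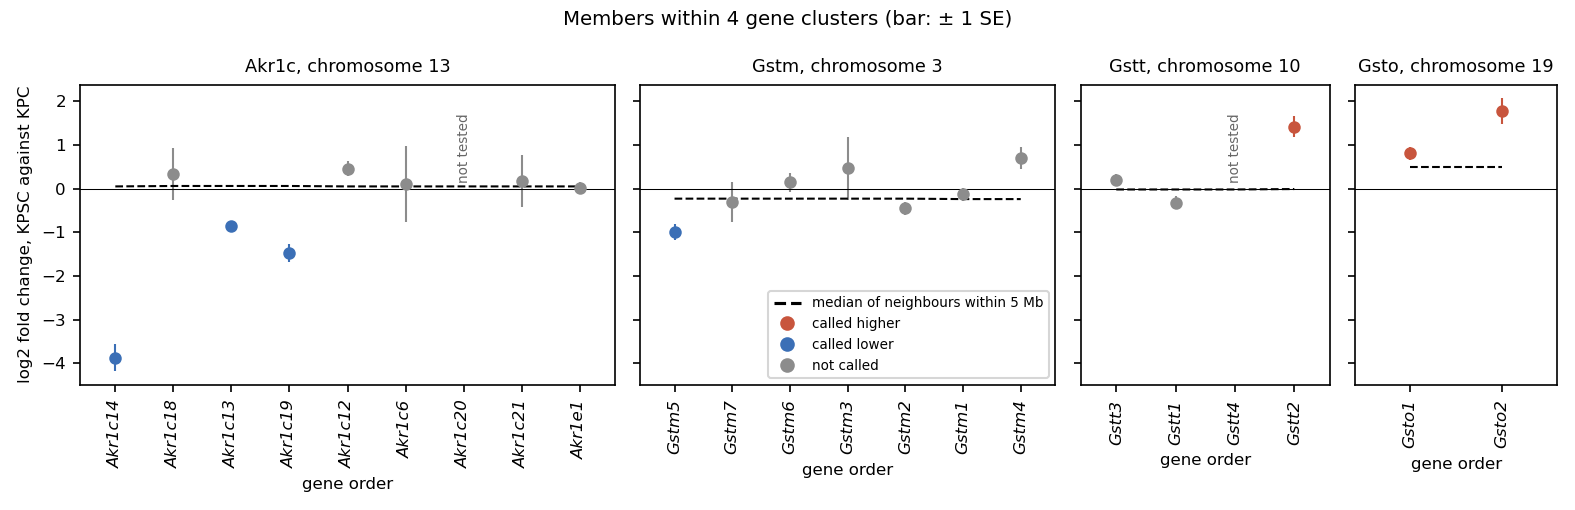
Log2 fold change of KPSC against KPC (y axis, bars of 1 SE) for members in gene order (x axis) in the Akr1c, Gstm, Gstt and Gsto clusters; the dashed line is the median of other expressed genes within 5 Mb. In the Akr1c cluster 3 genes at -0.86 to -3.87 stand beside genes near 0, and in the Gstm cluster the ends lie at -1.0 and 0.70.

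The sequences upstream of the Akr1c genes above 10 reads are shown because Akr1c13, called lower, and Akr1c12, not called, share much of theirs. Capitals mark the letters CATTAG, a repeat chosen after these windows were read, searched on both strands; the copies here are all on the gene's own strand. Positions are chr13:4059341-4059590 for Akr1c14, chr13:4190937-4191186 for Akr1c13 and chr13:4233490-4233739 for Akr1c19, all plus strand, and chr13:4279400-4279649 on the minus strand for Akr1c12, each the 250 bases before the RefSeq start in GRCm38.p6; the deposited gene span of Akr1c14 begins upstream of that start.
Akr1c13: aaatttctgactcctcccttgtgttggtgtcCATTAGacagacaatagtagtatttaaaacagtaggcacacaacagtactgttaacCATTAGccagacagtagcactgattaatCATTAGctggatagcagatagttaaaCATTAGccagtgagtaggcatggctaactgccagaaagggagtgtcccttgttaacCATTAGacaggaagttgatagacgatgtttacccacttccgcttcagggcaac
Akr1c12: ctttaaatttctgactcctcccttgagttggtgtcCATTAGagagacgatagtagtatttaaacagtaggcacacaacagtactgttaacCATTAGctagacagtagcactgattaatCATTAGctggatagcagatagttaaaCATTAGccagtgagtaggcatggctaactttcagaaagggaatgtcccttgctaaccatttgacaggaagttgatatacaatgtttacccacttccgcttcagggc
Akr1c19: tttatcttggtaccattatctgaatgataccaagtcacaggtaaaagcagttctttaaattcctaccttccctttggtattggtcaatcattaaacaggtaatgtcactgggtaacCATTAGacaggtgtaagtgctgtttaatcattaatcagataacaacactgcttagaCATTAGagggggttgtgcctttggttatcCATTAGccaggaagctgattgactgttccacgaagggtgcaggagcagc
Akr1c14: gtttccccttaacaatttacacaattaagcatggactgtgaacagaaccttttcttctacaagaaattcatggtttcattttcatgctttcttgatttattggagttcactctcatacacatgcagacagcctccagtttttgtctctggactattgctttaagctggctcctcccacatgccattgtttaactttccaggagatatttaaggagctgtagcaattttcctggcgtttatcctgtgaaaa
The Akr1c13 window held 5 copies, Akr1c12 held 4 and Akr1c19 held 3, while Akr1c14, the gene that fell most, held 0. Of all 32851 RefSeq promoter windows 7.36% held at least 1 copy and 9 windows held 3 or more, 3 of them being these genes. Because the repeat was picked from these windows, their place among the 9 is not read as a result. In a global alignment Akr1c13 and Akr1c12 matched at 92.5% of positions. Akr1c13 matched Akr1c19 at 61.6% and Akr1c14 at 52.1%, with no unrelated windows aligned for comparison. So the pair nearest in upstream sequence held 1 gene called lower and 1 not called with KPSC above, and the called genes Akr1c13 and Akr1c14 were among the least alike.

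Aldo-keto reductases of the 1A, 1B and 7A groups, which handle glucose, sugar acids and lipid aldehydes, gave 0 limma calls, with Akr1b8 the only one at an unadjusted p under 0.05. Akr1a1 had 7759, 10054 and 9021 normalised reads in KPC replicates 1 to 3 and 9740, 8662 and 7476 in KPSC replicates 1 to 3. The groups overlapped throughout (-0.05, SE 0.16, limma adjusted p = 0.866). Akr1b8, a reductase of long-chain aldehydes and retinaldehyde, had 1123, 1591 and 1277 normalised reads in KPC and 1959, 1733 and 1696 in KPSC. Its groups did not overlap, with KPSC above, yet the difference missed the threshold (0.44, SE 0.14, limma adjusted p = 0.0702) and passed it in DESeq2 (adjusted p = 0.035) and in limma without KPC replicate 2 (0.58, adjusted p = 0.0343). Akr1b3, the mouse aldose reductase, had means of 1405 ± 111 and 1550 ± 113 with overlapping groups, and 79.4% of its windows occur in another annotated gene, mostly a predicted copy. Akr1b10, Akr1b7 and Akr7a5 had log2 fold changes of -0.04, 0.15 and 0.10.

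Among the aldehyde dehydrogenases, those that act on retinaldehyde form the Aldh1a group, and 1 of its 4 members rose. Aldh1a3 (ENSMUSG00000015134, chr7:66390890-66427517, minus strand), a retinaldehyde dehydrogenase, had 1598, 2308 and 1331 normalised reads in KPC replicates 1 to 3 and 5390, 4231 and 3403 in KPSC replicates 1 to 3. The lowest KPSC library was above the highest KPC library. The group mean went from 1746 ± 505 to 4341 ± 998 (SD, n = 3 each), a log2 fold change of 1.33 (SE 0.23, limma adjusted p = 0.00917), and the call held in all 15 alternatives, at 0.82 (adjusted p = 0.0428) in the 3 low-acinar libraries.

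In the rest of the Aldh1a group KPSC replicate 3 stood apart. Aldh1a1, the enzyme behind most aldehyde dehydrogenase activity assays, had 93.7, 81.6 and 142 normalised reads in KPC and 225, 284 and 84.6 in KPSC. KPSC replicates 1 and 2 were above all KPC libraries and KPSC replicate 3 within them, so the gene was not called (0.77, SE 0.44, limma adjusted p = 0.306) unless that library was left out (1.29, adjusted p = 0.00993). Aldh1a7, its mouse paralog, had 32.7, 15.1 and 59.3 normalised reads in KPC and 103, 86 and 24.2 in KPSC, the same pattern at a lower count (0.93, limma adjusted p = 0.403). Aldh1a2, the retinaldehyde dehydrogenase of mesodermal tissues, had 925, 1031 and 934 normalised reads in KPC and 943, 1029 and 330 in KPSC. All libraries but KPSC replicate 3 lay between 925 and 1031, and that library far below them (-0.49, limma adjusted p = 0.463). In the 3 low-acinar libraries KPSC replicate 3 is the only KPSC library, so the log2 fold change of -1.56 there restates its low value and is not read as a call.

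Aldh3 enzymes oxidise medium- and long-chain aldehydes. Aldh3a1 (ENSMUSG00000019102, chr11:61207537-61218421, plus strand), abundant in cornea and known as an aryl hydrocarbon receptor target, had 232, 415 and 331 normalised reads in KPC replicates 1 to 3 and 1564, 1169 and 833 in KPSC replicates 1 to 3. Even the lowest KPSC library held over 2 times the highest KPC value. Mean normalised reads went from 326 ± 91.5 to 1188 ± 366 (SD, n = 3 each), a log2 fold change of 1.86 (SE 0.27, limma adjusted p = 0.0047), the highest of the 54 tested members, and the call held in all 15 alternatives. Aldh3a2, the fatty aldehyde dehydrogenase, had 1079, 1078 and 1058 normalised reads in KPC and 1424, 1213 and 1209 in KPSC. These groups did not overlap but the difference was small and not called (0.25, SE 0.09, limma adjusted p = 0.119). Aldh3a1 stood at 0.215 to 0.385 of Aldh3a2 in KPC and at 0.689 to 1.1 in KPSC. Aldh3b1, which acts on membrane-derived lipid aldehydes, had 456, 596 and 571 normalised reads in KPC and 732, 677 and 706 in KPSC, apart by group and not called (0.39, SE 0.12, limma adjusted p = 0.0731).

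Aldh18a1 and Aldh9a1 were the other aldehyde dehydrogenases that rose. Aldh18a1 (ENSMUSG00000025007, chr19:40550257-40588463, minus strand), which makes the precursor of proline from glutamate, had 1404, 1439 and 1277 normalised reads in KPC replicates 1 to 3 and 2235, 2154 and 1901 in KPSC replicates 1 to 3. The groups were well apart, with means of 1373 ± 85.5 and 2097 ± 174 (SD, n = 3 each) and a log2 fold change of 0.61 (SE 0.10, limma adjusted p = 0.00732). Expressed genes around it, 76 within 5 Mb, had a median of 0.38. Aldh9a1 (ENSMUSG00000026687, chr1:167349991-167368532, plus strand), of carnitine synthesis, had 961, 1093 and 969 normalised reads in KPC and 1514, 1584 and 1548 in KPSC. Expressed genes around Aldh9a1, 87 within 5 Mb, had a median of 0.23, and those of chromosome 1 had 0.39. The KPSC libraries of Aldh9a1 differed little among themselves and all lay above KPC. Its means were 1008 ± 73.8 and 1549 ± 35.1, with a log2 fold change of 0.62 (SE 0.09, limma adjusted p = 0.00421). Neither passed with library-total scaling (0.42, limma adjusted p = 0.133 for Aldh18a1; 0.43, adjusted p = 0.159 for Aldh9a1) or in the 3 low-acinar libraries (0.42, adjusted p = 0.189; 0.60, adjusted p = 0.0655).

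Aldh7a1 (ENSMUSG00000053644, chr18:56509687-56572951, minus strand), of lysine breakdown, had 2605, 2645 and 2479 normalised reads in KPC replicates 1 to 3 and 1805, 1716 and 1297 in KPSC replicates 1 to 3. All KPSC libraries were below all KPC libraries. Mean normalised reads went from 2576 ± 86.8 to 1606 ± 271 (SD, n = 3 each), a log2 fold change of -0.70 (SE 0.13, limma adjusted p = 0.0134), while 35 expressed genes within 5 Mb had a median of -0.35. Without KPC replicate 2 it just missed the threshold (-0.68, limma adjusted p = 0.0524).

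Aldh2 (ENSMUSG00000029455, chr5:121566027-121593824, minus strand), the leading aldehyde dehydrogenase per kilobase, missed the threshold. It had 13713, 13971 and 13196 normalised reads in KPC replicates 1 to 3 and 10009, 9720 and 6283 in KPSC replicates 1 to 3. The KPC libraries lay close together and all KPSC libraries below them, with KPSC replicate 3 far below its own group. Over 99 expressed genes within 5 Mb the median log2 fold change was -0.28. For Aldh2 means were 13627 ± 395 and 8671 ± 2073 (SD, n = 3 each), a log2 fold change of -0.68 (SE 0.20, limma adjusted p = 0.0564). It was called lower with library-total scaling (-0.88, limma adjusted p = 0.0213) and in DESeq2 (adjusted p = 0.00187). The -1.14 of the 3 low-acinar libraries rests on KPSC replicate 3 as the only KPSC library.

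Neither folate-linked enzyme was called. Aldh1l1, cytosolic 10-formyltetrahydrofolate dehydrogenase, had 502, 574 and 528 normalised reads in KPC and 501, 532 and 278 in KPSC, and Aldh1l2, its mitochondrial counterpart, had 217, 163 and 141 in KPC and 385, 265 and 150 in KPSC. In both, KPSC replicate 3 was the low KPSC library. Aldh1l2 was called without KPSC replicate 3 (0.90, limma adjusted p = 0.0277). In the 3 low-acinar libraries Aldh1l1 was at -0.95, which likewise rests on KPSC replicate 3 alone. Aldh4a1, Aldh5a1, Aldh6a1, Aldh16a1 and Aldh1b1 had log2 fold changes from -0.32 to 0.22 and overlapping groups.

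Over the 48 members with a mean of at least 10 normalised reads over all libraries, KPSC replicate 3 was the lowest KPSC library for 39 and the highest for 5. The same count was not made over all genes, so these numbers are not read as a trait of the families. They also depend on the scaling, as KPSC replicate 3 had a size factor of 1.158 against 0.828 and 0.895. In CPM its family sum was the highest of KPSC for aldo-keto reductases (883). It lay between the others for glutathione transferases (1165) and was the lowest for aldehyde dehydrogenases (1316). In Aldh1a1, Aldh1a2, Aldh1a7 and Gstm7, KPSC replicate 3 held 0.377, 0.35, 0.281 and 0.336 of the lower of the other KPSC libraries. Gstp2 went the other way, at 45.8 normalised reads against 6.04 and 11.2. This library also had the lowest acinar share, 0.379%, and the lowest islet share, 0.00131%, of the 6; their part in these values was not tested.

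Partner genes of the enzymes were read in 8 lists. Over all genes tested limma called 7.61% higher and 6.76% lower. In lists this short, 0 calls in 1 direction is therefore not read as a result. In glutathione synthesis and recycling 2 of 23 genes rose and 3 fell (median log2 fold change 0.08). Gpx2, the epithelial glutathione peroxidase, had 136, 174 and 326 normalised reads in KPC and 715, 627 and 782 in KPSC (1.83, SE 0.29, limma adjusted p = 0.00679), and Glo1, which clears methylglyoxal with glutathione, rose by 0.44 (adjusted p = 0.0182). Gclm, the modifier subunit of the enzyme that starts glutathione synthesis, had 2199, 1850 and 2121 normalised reads in KPC and 1188, 1078 and 1274 in KPSC (-0.80, SE 0.11, limma adjusted p = 0.00322). Ggt7, of the gamma-glutamyl transferase family, had 409, 439 and 429 in KPC and 37.4, 40.2 and 51.8 in KPSC (-3.29, SE 0.18, limma adjusted p = 9.39e-05). None of these 4 genes had overlapping groups.

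The membrane-bound glutathione transferases, a separate protein family that also uses glutathione, had 2 of 6 genes higher and 0 lower in limma, with 4 at an unadjusted p under 0.05, and edgeR called 0 and DESeq2 1 lower (median 0.04). Mgst3 had 525, 911 and 655 normalised reads in KPC and 2332, 2240 and 1818 in KPSC (1.64, SE 0.20, limma adjusted p = 0.00223). Ptges, which makes prostaglandin E2, had 257, 368 and 301 in KPC and 856, 1013 and 800 in KPSC (1.53, SE 0.16, limma adjusted p = 0.00113). Mgst3 lies close to Aldh9a1 on chromosome 1, at chr1:167371966-167393841.

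Of the NRF2 regulators and targets 4 of 34 rose and 1 fell (median 0.08), and 14.7% called is close to the 14.4% of all genes. Those named by rule were Gpx2 and G6pdx, the first enzyme of the pentose phosphate route (0.55, limma adjusted p = 0.00689), among the higher and Gclm as the lower. In the aryl hydrocarbon receptor pathway limma called 0 of 6 genes, 2 had an unadjusted p under 0.05, and edgeR and DESeq2 each called 1 lower (median -0.25). Ahr itself, the receptor, had 1210, 1299 and 989 normalised reads in KPC and 890, 890 and 806 in KPSC (-0.43, SE 0.12, limma adjusted p = 0.0513).

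In the retinoid pathway 3 of 23 genes rose and 2 fell (median 0.20). Cyp26b1, which degrades retinoic acid, had 167, 157 and 198 normalised reads in KPC and 333, 490 and 384 in KPSC (1.19, SE 0.18, limma adjusted p = 0.00503), and Crabp1, a retinoic acid binding protein, rose by 1.60 (adjusted p = 0.0299). Stra6, the membrane receptor through which retinol enters cells, had 3493, 4412 and 3902 normalised reads in KPC and 2048, 2064 and 2157 in KPSC (-0.91, SE 0.11, limma adjusted p = 0.00202). Rbp4, the retinol carrier, fell by 0.95 (limma adjusted p = 0.0383), from a mean of 736 to 377.

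Other alcohol and carbonyl oxidoreductases had 4 of 27 genes higher and 5 lower (median -0.06). Adh7, an alcohol dehydrogenase that also oxidises retinol, had 169, 230 and 247 normalised reads in KPC and 30.2, 29 and 16.4 in KPSC (-3.07, SE 0.30, limma adjusted p = 0.000951). The steroid 5-alpha-reductases parted: Srd5a2 had 109, 64.8 and 85.2 in KPC and 2.42, 12.3 and 10.4 in KPSC (-3.41, SE 0.55, limma adjusted p = 0.00676), while Srd5a1 rose by 0.72 (adjusted p = 0.0147). Ptgr1, a prostaglandin reductase, rose by 0.74 (limma adjusted p = 0.0247).

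In conjugation and export 0 of 16 genes rose and 4 fell in limma (median -0.27), with 7 at an unadjusted p under 0.05, and edgeR and DESeq2 each called 0 higher. Ugt2b34, a glucuronosyltransferase, had 6165, 5849 and 5576 normalised reads in KPC and 1267, 1095 and 1567 in KPSC (-2.18, SE 0.14, limma adjusted p = 0.00014). Its neighbour Ugt2b35 went from a mean of 268 to 53.3 (-2.31, limma adjusted p = 0.00113). Of the proline, glutamate and one-carbon partners of Aldh18a1, Aldh4a1 and Aldh1l1, 5 of 19 rose and 0 fell (median 0.17), with 8 at an unadjusted p under 0.05, and edgeR and DESeq2 each called 0 lower. Got1, cytosolic aspartate aminotransferase, rose by 0.55 (limma adjusted p = 0.00828) and Mthfd1, of folate metabolism, by 0.41 (adjusted p = 0.0158). In the 3 low-acinar libraries 0 of 19 were called.

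**Figure D5:**
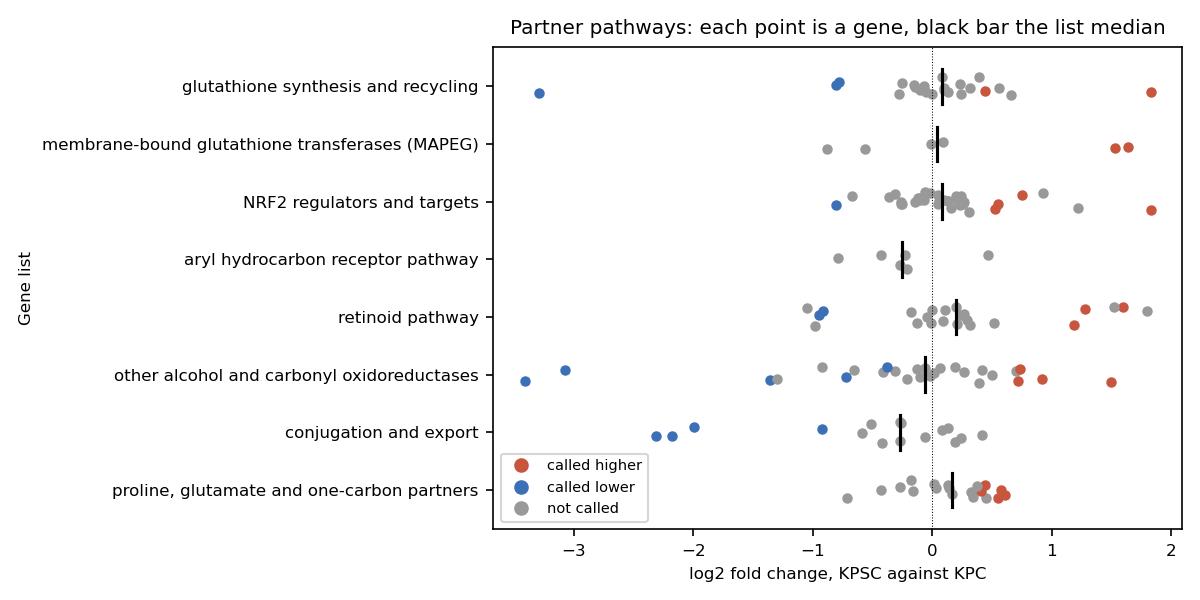
Log2 fold change of KPSC against KPC (x axis) for every tested gene of the 8 partner lists (y axis), coloured by call, with a black bar at each list's median. Medians lie between -0.27 and 0.20, and the genes farthest to the left, near -3, are Srd5a2, Ggt7 and Adh7.

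Other motifs searched in the promoter windows were also near their share over all genes. The xenobiotic response element core GCGTG lay in 16 of 50 members (32%) and in 35.2% of all genes, the AP-1 site TGANTCA in 4 members (8%) and 8.97% of genes, and the core AGGTCA bound by retinoic acid receptors in 10 members (20%) and 18.1% of genes. All were searched on both strands, and motifs can overlap: the Gstm5 antioxidant match TGACCACGC includes CACGC, the xenobiotic core read on the other strand.

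The authors' deposited table gives 2946 genes with an adjusted p under 0.05, and 17 members are among them. These are all 14 members called by limma here and, in the authors' deposited table, Akr1b8 (adjusted p = 0.0397), Aldh2 (0.00236) and Gstm2 (0.0473). The smallest adjusted p of a member in the authors' deposited table is that of Akr1c14, at 5.31e-20.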

How the data were processed

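RNA was sequenced in 3 KPC and 3 KPSC libraries made with a TruSeq kit. Per the submitters' processing notes the tools included CASAVA 1.7 and the build was mm10; not given in the sources used here were the aligner, the counter, the annotation and any use of strand, so antisense and overlapping genes cannot be told apart. The authors deposited a normalised signal per gene and library, which, multiplied by 1 size factor per library, returned whole reads for 100.0% of values (within 0.01), and p-values for KPSC against KPC, quoted only as the authors' deposited table.

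Of 25450 rows, 18185 had values; 5 with damaged symbols were left out. limma 3.58.1 (R 4.3.3, eBayes with trend) was run on log2(value + 1), over genes reaching 1 in 3 or more libraries, adjusted after Benjamini and Hochberg; fold changes of low genes are understated. edgeR 4.0.16 and DESeq2 1.42.0 were run on the recovered read counts. The script was tested on simulated data. Every pair of libraries differed by more than sampling noise (chi-square over its degrees of freedom at least 38.7). Members and gene lists were chosen with earlier results of these data known. All called members and those with a mean of at least 1000 were described in full, and from each partner list up to 2 called genes per direction. Shared windows were counted over 50-base stretches of GENCODE M21 transcripts; promoter sequences are from RefSeq (GRCm38.p6). With 3 against 3, an exact permutation test could not go below p = 0.1, so none was used.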

Additional observations from a re-analysis of the deposited data

How the results depend on the processing

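Of the 14 called members, 6 kept their call in all 15 alternatives (Akr1c14, Akr1c19, Aldh1a3, Aldh3a1, Gstm5 and Gstt2). Of 40 uncalled members 8 were called in some, and 0 calls reversed. Aldh1a2 and Aldh1l1 are among the 8 only through the 3 low-acinar libraries, where KPSC replicate 3 is the only KPSC library. The 15 alternatives include that fit. A sign change was counted only where the main fit or that same alternative called the member. Left uncounted were, among others, Aldh1a1 (1.29 without KPSC replicate 3, -0.05 in the 3 low-acinar libraries) and Aldh1l2 (0.90 and -0.32). Aldh1a2 was at 0.03 without KPSC replicate 3 and at -1.56 in the low-acinar libraries. Scaling to library totals moved the median of all genes from 0.01 to -0.18 and the share of higher calls from 53% to 29.7%, with 380 of all genes higher, 3 glutathione transferases higher and 2 lower, and 2 aldehyde dehydrogenases higher and 2 lower. Without the mean-variance trend 825 genes were higher and 718 lower, with 3 glutathione transferases higher and 0 aldehyde dehydrogenases lower. DESeq2 gave 2 glutathione transferases lower, 1 aldo-keto reductase higher and 2 aldehyde dehydrogenases lower. The 3 libraries with at most 5% acinar reads, chosen after seeing the data, gave 2 glutathione transferases higher, and 2 aldehyde dehydrogenases higher and 4 lower; here 1 KPSC library is assumed to vary like the KPC pair, and Aldh1a2, Aldh1l1 and Aldh2 among the lower rest on KPSC replicate 3, already low in them. Leaving out 1 library at a time gave 698 to 1494 genes higher and 525 to 1557 lower, 3 to 6 glutathione transferases higher, 0 to 1 aldo-keto reductases higher and 0 to 1 aldehyde dehydrogenases lower. For glutathione transferases the 3 came without KPC replicate 1 or 2 or KPSC replicate 1 or 2; the aldo-keto reductase came without KPC replicate 2, as did the 0. Among these 6 fits, the values of 1274 and 1132 with all libraries were exceeded only without KPSC replicate 3. The cause of these shifts was not tested.

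With the replicate number as a block, 567 genes were higher and 447 lower, and 2 glutathione transferases higher. Deviations from the group means correlated at -0.12, -0.35 and -0.46 between same-numbered libraries over 12190 genes. Differently numbered pairs ran from -0.30 to 0.41. The replicate number therefore showed no pairing in these values. Deviations within a group cancel out, so these correlations cannot settle what else the libraries share. Depth limits the genes at a few reads: members with at most 10 reads could not show a change.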
